A study of Mus musculus with 6 samples.

Results

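Expression of 33 genes of glycolysis and of the response to hypoxia was examined in 6 RNA-seq libraries of mouse AE9a leukaemia, 3 labelled oil and 3 labelled tamoxifen. The genes were chosen by symbol, as glycolytic enzymes, glucose and lactate transporters, regulators of glycolytic flux and known hypoxia-inducible transcripts, and all 33 had a row among the 23608 rows of the count table. Of these, 30 had enough counts to be tested and 3 did not. AE9a is a truncated AML1-ETO fusion protein, and the leukaemia cells carried it on a retrovirus together with GFP. All 6 libraries came from leukaemia cells with 1 floxed copy of Usp18 and the UBCER-Cre transgene, in which the ubiquitin C promoter drives a tamoxifen-dependent Cre recombinase in all cells. The cells were transplanted into wild-type C57BL/6 mice; the mice of the study were young adults of both sexes. Once the recipients were sick, they were divided into groups with equal shares of GFP-positive cells in blood. They were then injected with oil (genotype Usp18+/f) or with tamoxifen in oil (genotype Usp18+/D in the labels, written Usp18+/Δ by the study). GFP+ Lin- c-Kit+ cells, an immature leukaemia fraction, were then isolated from splenocytes by sorting, 3 days after injections began. Each group was given as separate mice by the study. No group received tamoxifen without the floxed allele, so an action of tamoxifen itself and a loss of 1 Usp18 copy cannot be told apart here.

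Glycolysis converts glucose to pyruvate in the cytosol. Glucose enters through the SLC2A transporters, is trapped by hexokinase, and is committed to the pathway by phosphofructokinase. Lactate dehydrogenase turns pyruvate into lactate, which leaves the cell through the monocarboxylate transporters of the SLC16A family, whereas pyruvate dehydrogenase kinase keeps pyruvate out of the mitochondria. The hypoxia-inducible factor HIF1 is a dimer whose alpha subunit is hydroxylated by the EGLN prolyl hydroxylases in the presence of oxygen and is then degraded. When oxygen is low the dimer binds DNA at a short core motif and activates many of the glycolytic genes, as well as angiogenic, mitophagy and stress genes. Much of this regulation acts on protein stability and enzyme activity, which transcript counts do not measure.

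The libraries held 17118964 to 20741399 counts, and the 33 genes together took 0.726% to 0.835% of them. Expression levels are in CPM (counts scaled to the TMM-adjusted total of the library), and levels of different genes are compared only as CPM per kilobase of annotated exon. This length joins all annotated exons of a gene and can exceed that of any single transcript, so rankings between genes depend on it. A count of 3 corresponded to 0.145 to 0.177 CPM, and such floors cover counting error only. Usp18, the targeted gene, had 9.12, 10.95 and 11.2 CPM with oil and 15.1, 28.0 and 19.4 CPM with tamoxifen, where values are always listed in the order oil 1, 3, 4 and tamoxifen 1, 2, 4. Its log2 fold change was 0.998 (SE 0.23, edgeR adjusted p = 0.0739), so that the transcript was not lower in the libraries labelled as depleted, and every direction below rests on the labels. Tamoxifen 4 stood apart from the other tamoxifen libraries. Among the tamoxifen libraries it was the one nearest the oil mean for 20 of the 30 tested genes of the set, and for 58.0% of all tested genes. The main results are therefore also given without it. Since it was singled out by its closeness to oil, leaving it out favours a larger number of calls by construction, and the values without it show how far a result rests on this library and are no separate evidence of a difference.

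Markers of other cells were read in the same libraries. Kit, the receptor used in the sort, was at 440 to 451 CPM in oil and 447 to 782 CPM in tamoxifen, and the summed level of 8 progenitor markers was 1864 to 1946 CPM in oil and 2055 to 2738 CPM in tamoxifen. Of these 8, the granule genes Elane and Mpo did not exceed 0.236 CPM in any library. Cd34 was at 9.68, 8.43 and 11.7 CPM in oil and at 113, 134 and 41.8 CPM in tamoxifen. Runx1, Gata2 and Ctsg were also higher in every tamoxifen library than in every oil library, whereas Kit and Myb overlapped between the groups. Of the markers of other cells, 2 of 5 B cell, 7 of 10 T and NK cell, 2 of 8 neutrophil and 3 of 6 endothelial and stromal markers were at 0 in all 6 libraries, Cd3e, Cd8a, Ms4a1, S100a8 and Cdh5 among them. Summed macrophage and monocyte markers were 4.02 to 7.65 CPM in oil and 7.18 to 12.8 CPM in tamoxifen. Erythroid markers summed to 4989 to 7304 CPM in oil and 4106 to 8129 CPM in tamoxifen, and mast cell and basophil markers to 2194 to 2411 CPM in oil and 2635 to 4791 CPM in tamoxifen, with 0 of the 10 genes of each at 0. The summed mast cell and basophil markers were higher in every tamoxifen library than in every oil library, with Cpa3 and Fcer1a among the higher genes, whereas Hdc, Ms4a2, Mcpt4 and Prss34 overlapped between the groups. Summed T and NK cell markers were 1.13 to 2.57 CPM in oil and 7.62 to 56.5 CPM in tamoxifen, nearly all of it Nkg7. The B cell, neutrophil and endothelial sums reached at most 1.18 CPM in any library. The part of these cells in the results below was not tested. In bulk RNA, fewer cells of a kind and less RNA per cell cannot be told apart.

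**Figure D1:**
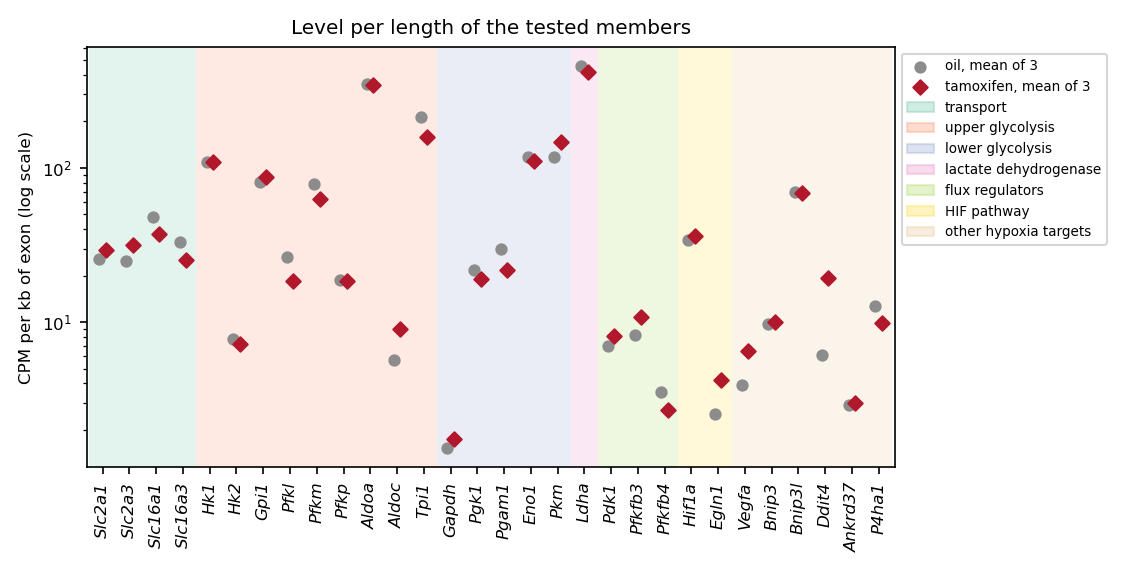
Mean level of the 30 tested genes in CPM per kilobase of exon (vertical axis, log scale), for oil (grey circles, mean of 3 libraries) and tamoxifen (red diamonds, mean of 3 libraries), ordered by role. Ldha, Aldoa and Tpi1 lie at the top and Gapdh at the bottom, and for most genes the 2 means lie close together.

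The question of the comparison was which genes differed in established leukaemia after tamoxifen. Vegfa, which encodes the angiogenic factor VEGF-A, rose 1.64-fold and was the only 1 of the 30 tested genes past the edgeR threshold of an adjusted p under 0.05. None of the 30 was called lower. Adjusted p-values are from edgeR over all tested genes unless DESeq2 is named. These counts correspond to 3.33% and 0% of the tested genes of the set, beside 1.75% of all 11614 tested genes called higher and 0.267% called lower. At an unadjusted p under 0.05 there were 10 of 30 (33.3%), beside 20.6% of all genes. The log2 fold change was positive for 15 genes and negative for 15, with a median of -0.0042 beside a median of 0.0001 over all genes. The 3 tamoxifen libraries lay wholly above the 3 oil libraries for 6 genes (20.0%, beside 13.3% of all genes) and wholly below them for 5 (16.7%, beside 11.8%). The 6 higher genes were Slc2a3, Pkm, Pfkfb3, Egln1, Vegfa and Ddit4, and the 5 lower genes were Pfkm, Pgk1, Pgam1, Pfkfb4 and P4ha1. The set as a whole thus did not shift in 1 direction.

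**Figure D2:**
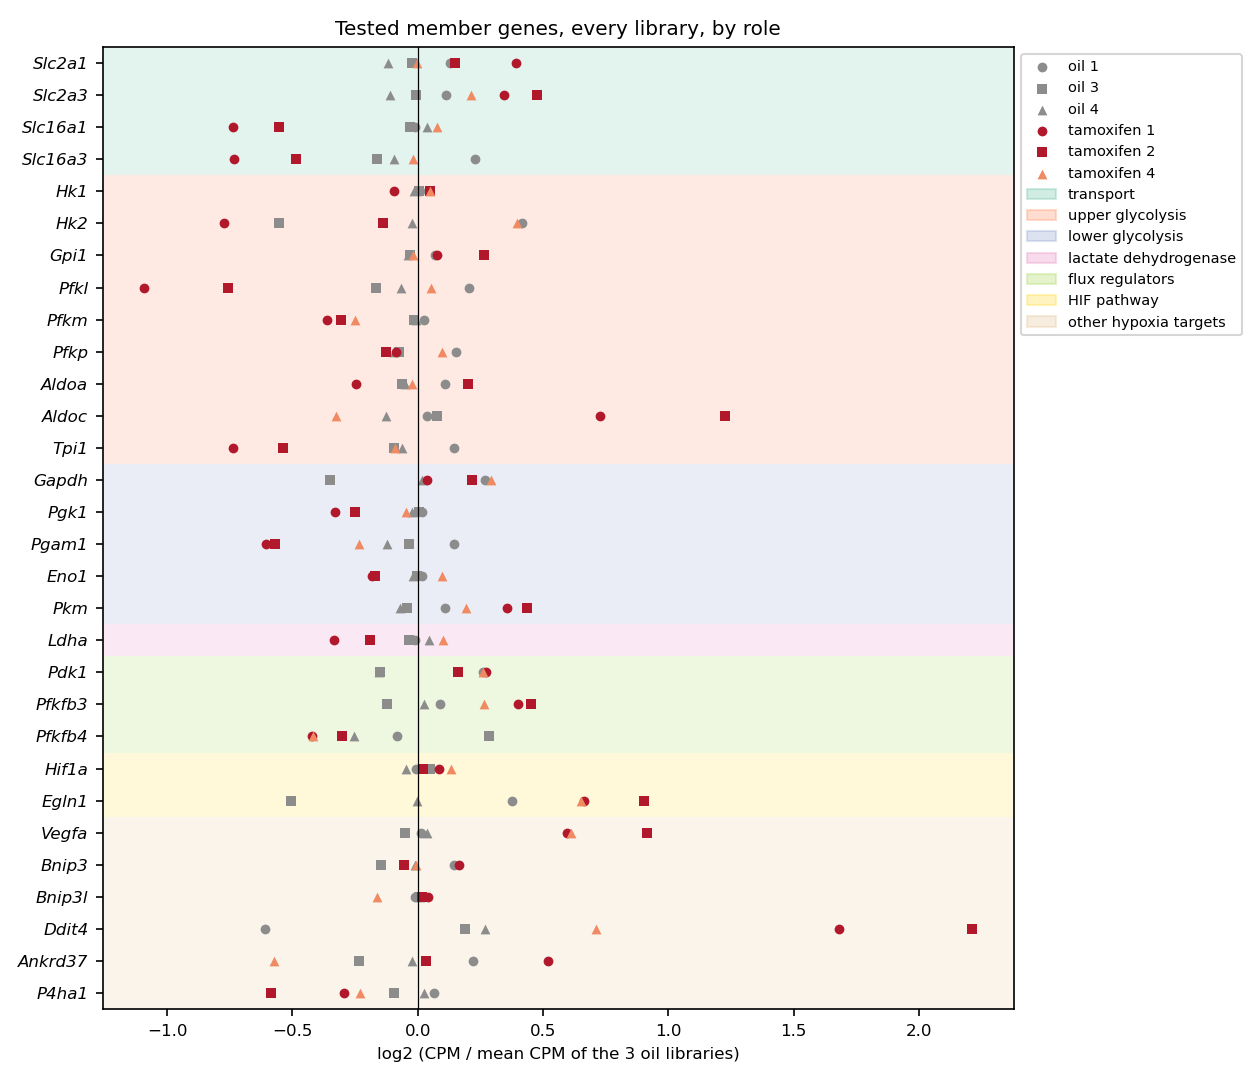
Level of each tested gene in every library as log2 of its CPM over the mean CPM of the 3 oil libraries (horizontal axis), with oil libraries in grey, tamoxifen 1 and 2 in dark red and tamoxifen 4 in orange, and coloured bands for the roles. The 3 tamoxifen symbols lie right of all oil symbols for 6 genes and left of them for 5, and for Pfkl, Tpi1, Slc16a1 and Aldoc tamoxifen 4 lies among or beyond the oil libraries on the side away from tamoxifen 1 and 2.

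Among the transporters, the glucose transporter genes and the lactate transporter genes had fold changes of opposite sign. Slc2a3 encodes GLUT3, a glucose transporter of high affinity. Slc2a3 (chr6:122727809-122801640, minus strand, mm10) was at 194, 178 and 166 CPM in oil and at 228, 250 and 208 CPM in tamoxifen, so that the groups did not overlap. The log2 fold change was 0.35 (SE 0.10, edgeR adjusted p = 0.123). Slc2a1, which encodes the widely expressed GLUT1, was at 98.8, 88.9 and 83.2 CPM in oil and 119, 100 and 90.2 CPM in tamoxifen, and here the groups overlapped (log2 fold change 0.19, SE 0.12, adjusted p = 0.389). Slc16a1 and Slc16a3 encode the lactate carriers MCT1 and MCT4. Slc16a1 was at 210, 207 and 217 CPM in oil and at 127, 144 and 223 CPM in tamoxifen, and Slc16a3 at 205, 156 and 164 CPM in oil and 105, 125 and 173 CPM in tamoxifen. For both, tamoxifen 1 and 2 were below every oil library and tamoxifen 4 was not. The log2 fold changes were -0.36 (SE 0.19, adjusted p = 0.314) for Slc16a1 and -0.38 (SE 0.19, adjusted p = 0.286) for Slc16a3. Without tamoxifen 4 they were -0.64 and -0.60, with adjusted p-values of 0.00031 and 0.00448. Per kilobase of exon, Slc16a1 had the highest mean level of the 4 transporters in oil, at 47.8 CPM, followed by Slc16a3 at 32.9, Slc2a1 at 25.8 and Slc2a3 at 24.8 CPM. The last place of Slc2a3 depends on its joined exon length of 7245 bases, since its longest coding transcript had 3959.

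The upper part of glycolysis, from hexokinase to triose phosphate isomerase, comprised 9 genes with 3 positive and 6 negative log2 fold changes and a median of -0.03. None of them passed the threshold over all 6 libraries. Hk1 encodes the constitutive hexokinase. It was at 937, 935 and 923 CPM in oil and 874, 963 and 965 CPM in tamoxifen, a log2 fold change of 0.0035 (SE 0.08) whose sign turned under several alternatives. Hk2, the hexokinase that hypoxia and growth signals induce in many tissues, ranged from 31.4 to 61.5 CPM within oil and from 27.0 to 60.6 CPM within tamoxifen. Its spread between replicates exceeded the difference between the groups (log2 fold change -0.09, SE 0.32). Gpi1, which encodes glucose phosphate isomerase, was at 506 to 545 CPM in oil and 514 to 626 CPM in tamoxifen (log2 fold change 0.11, SE 0.10). A large share of its transcript is shared with a pseudogene, as given below.

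Phosphofructokinase is a tetramer of subunits encoded by Pfkl, Pfkm and Pfkp, named after liver, muscle and platelets. Pfkm (chr15:98092589-98132451, plus strand, mm10) was at 265, 258 and 260 CPM in oil and at 203, 211 and 219 CPM in tamoxifen, so that every tamoxifen library was lower than every oil library. Its log2 fold change was -0.31 (SE 0.08, adjusted p = 0.0866), which the DESeq2 Wald test called (adjusted p = 0.0122). Pfkl was at 202, 157 and 168 CPM in oil and at 82.4, 104 and 182 CPM in tamoxifen. Tamoxifen 1 and 2 were well below the oil libraries and tamoxifen 4 was within their range. The log2 fold change of Pfkl was -0.51 (SE 0.27, adjusted p = 0.305) over 6 libraries and -0.91 (adjusted p = 0.000634) without tamoxifen 4. Pfkp overlapped between the groups, at 236 to 280 CPM in oil and 231 to 270 CPM in tamoxifen (log2 fold change -0.03, SE 0.10). Per kilobase of exon the mean levels in oil were 78.2 CPM for Pfkm, 26.3 for Pfkl and 18.8 for Pfkp. The joined exons of Pfkp cover 13401 bases and its longest coding transcript 4145, so the order of Pfkl and Pfkp depends on the length used.

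Aldoa and Aldoc encode aldolases, which split fructose bisphosphate. Aldoa, the second most abundant gene of the set per kilobase, was at 1094, 971 and 979 CPM in oil and at 856, 1165 and 998 CPM in tamoxifen. The tamoxifen libraries lay on both sides of the oil libraries, and the log2 fold change was -0.01 (SE 0.13). Aldoc, the brain form, was at 18.9, 19.4 and 16.9 CPM in oil and at 30.5, 43.1 and 14.7 CPM in tamoxifen. Tamoxifen 1 and 2 were above every oil library and tamoxifen 4 below every one, giving a log2 fold change of 0.68 (SE 0.33, adjusted p = 0.285), and of 0.998 (adjusted p = 0.000969) without tamoxifen 4. Tpi1, which encodes triose phosphate isomerase, was at 646, 548 and 560 CPM in oil and at 350.5, 403 and 550 CPM in tamoxifen. Tamoxifen 4 alone reached the oil range. The log2 fold change of Tpi1 was -0.43 (SE 0.16, adjusted p = 0.211), and -0.63 (adjusted p = 0.000848) without tamoxifen 4.

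The lower part of glycolysis yields ATP and pyruvate. Pkm encodes pyruvate kinase, the last step. Pkm (chr9:59656368-59679375, plus strand, mm10) was at 630, 567 and 556 CPM in oil and at 749, 790 and 667 CPM in tamoxifen. All tamoxifen libraries were higher. The log2 fold change was 0.33 (SE 0.10, adjusted p = 0.134), and the DESeq2 Wald test gave an adjusted p of 0.0483. Pgam1 and Pgk1, which encode phosphoglycerate mutase and phosphoglycerate kinase, went the other way. Pgam1 (chr19:41911923-41918660, plus strand, mm10) was at 65.4, 57.8 and 54.4 CPM in oil and at 39.0, 39.9 and 50.3 CPM in tamoxifen, without overlap (log2 fold change -0.46, SE 0.13, adjusted p = 0.114, DESeq2 adjusted p = 0.0376). Pgk1 (chrX:106187100-106203699, plus strand, mm10) was at 49.6, 49.3 and 48.4 CPM in oil and at 39.1, 41.3 and 47.5 CPM in tamoxifen. Its groups did not overlap, but tamoxifen 4 was within 1 CPM of the lowest oil library (log2 fold change -0.20, SE 0.10, adjusted p = 0.292). Eno1, which encodes alpha-enolase, was at 638, 629 and 622 CPM in oil and 555, 559 and 673 CPM in tamoxifen, with tamoxifen 4 above every oil library and the other tamoxifen libraries below (log2 fold change -0.08, SE 0.10). Eno2, the neuronal enolase, had 0 counts in 5 libraries and 1 count in tamoxifen 2, which was not enough to test.

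Gapdh, often used as a reference transcript, was at 7.60, 4.94 and 6.38 CPM in oil and at 6.48, 7.32 and 7.73 CPM in tamoxifen. The joined exons of Gapdh cover 4133 bases and its longest coding transcript 1420, so its rank per kilobase depends on the length used. Per kilobase of exon it was the lowest of the 30 tested genes, at 1.53 CPM in oil beside 349 CPM for Aldoa and 117 CPM for Eno1 and Pkm. Sequence shared with other genes was therefore examined for all 33. At 95% identity over at least 150 bases, the Gapdh transcript matched transcripts of 79 other genes, 76 of them pseudogenes, over 88.0% of its length. Among the other enzymes the shared share was 85.6% for Eno1, 76.8% for Ldhb, 68.8% for Pgk1, 65.5% for Pkm, 55.0% for Ldha, 50.2% for Gpi1, 43.1% for Pgam1 and 19.3% for Tpi1. In the hypoxia group it was 94.2% for Bnip3 and 34.7% for Bnip3l, and it was 0 for the other 22 genes, Vegfa, Ddit4, Egln1 and Pfkfb3 among them. Eno1 shares its sequence with Eno1b, which had a row of its own at 648 to 799 CPM. How the counting treated reads that match several genes is not given in the sources used here, so the levels of these 11 genes are uncertain, and so are those of Pkm and Pfkm for the 15.3% and 10.2% of their exons that another gene covers on the same strand. The share of Gpi1 exons opposite another gene was 11.5%. For the shared sequence, its part in the low Gapdh level was not tested.

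Ldha encodes the muscle form of lactate dehydrogenase and was the most abundant gene of the set per kilobase, at 457 CPM in oil. It was at 1503, 1477 and 1561 CPM in oil and at 1199.5, 1327 and 1623 CPM in tamoxifen. Tamoxifen 1 and 2 were below and tamoxifen 4 was above all oil libraries, and the log2 fold change was -0.13 (SE 0.12, adjusted p = 0.544). Ldhb, the heart form, had 16.5, 1 and 5 counts in oil and 7, 1 and 2 counts in tamoxifen and was not tested. Of the counts given to Ldha and Ldhb, nearly all were thus those of Ldha. Pseudogenes share 76.8% of the Ldhb and 55.0% of the Ldha transcript, so the true share of Ldhb is uncertain.

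The 3 regulators of flux are kinases. Pfkfb3 and Pfkfb4 encode bifunctional enzymes that set the level of fructose 2,6-bisphosphate, the allosteric activator of phosphofructokinase, and their differences had opposite signs. Pfkfb3 (chr2:11471433-11554077, minus strand, mm10) was at 66.7, 57.8 and 63.9 CPM in oil and at 82.9, 85.8 and 75.4 CPM in tamoxifen, without overlap. Its log2 fold change was 0.37 (SE 0.10, adjusted p = 0.0914, DESeq2 adjusted p = 0.0333). Pfkfb4 (chr9:108991778-109032228, plus strand, mm10) was at 16.1, 20.7 and 14.3 CPM in oil and at 12.7, 13.8 and 12.8 CPM in tamoxifen, also without overlap (log2 fold change -0.38, SE 0.17, adjusted p = 0.243). Pdk1, which encodes a kinase that inactivates pyruvate dehydrogenase, was at 64.9, 48.9 and 48.7 CPM in oil and at 65.5, 60.6 and 64.9 CPM in tamoxifen, where oil 1 reached the tamoxifen range (log2 fold change 0.23, SE 0.13, adjusted p = 0.324).

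The balance between related genes was read as a log2 ratio of counts within each library, which does not depend on scaling between libraries. Of 10 ratios, the groups were apart for 1, Pfkfb4 over Pfkfb3. It was -2.05, -1.48 and -2.16 in oil and -2.70, -2.63 and -2.56 in tamoxifen, or -1.90 ± 0.37 against -2.63 ± 0.07 (SD, n = 3 each). Pfkp over Pfkl was 0.47, 0.61 and 0.49 in oil and 1.53, 1.15 and 0.57 in tamoxifen, where tamoxifen 4 fell into the oil range. Aldoc over Aldoa was -5.85, -5.64 and -5.86 in oil and -4.81, -4.76 and -6.08 in tamoxifen, with tamoxifen 4 on the far side of oil. Slc16a3 over Slc16a1 differed by 0.002 between the group means, and Bnip3 over Bnip3l by 0.07, both within the spread of the replicates. With 3 libraries in each group an exact permutation test cannot go below p = 0.10, so the ratios are given as values.

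**Figure D3:**
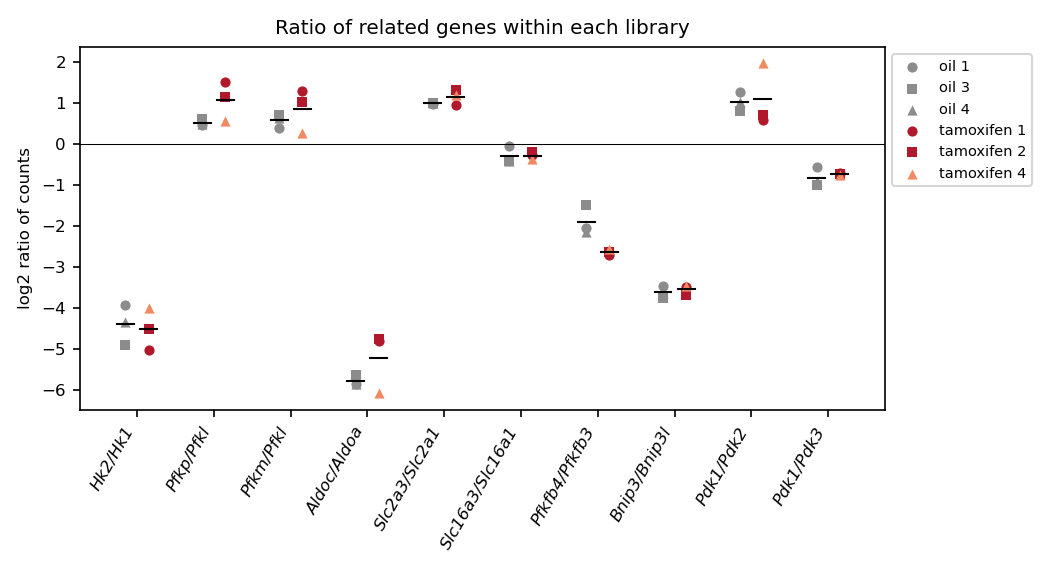
Log2 ratio of the counts of 10 pairs of related genes within each library (vertical axis), oil in grey, tamoxifen 1 and 2 in dark red, tamoxifen 4 in orange, with the mean of each group as a bar. Pfkfb4 over Pfkfb3 is the pair whose groups lie apart, at -1.90 and -2.63 on average.

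The hypoxia-response genes held the largest positive fold changes of the set. Vegfa (chr17:46016993-46032369, minus strand, mm10) was at 16.996, 16.284 and 17.286 CPM in oil and at 25.463, 31.765 and 25.746 CPM in tamoxifen. All tamoxifen libraries, tamoxifen 4 included, were at least 8 CPM above every oil library. The means were 16.9 ± 0.516 and 27.7 ± 3.56 CPM (SD, n = 3 each), and the log2 fold change was 0.71 (SE 0.13, edgeR adjusted p = 0.0402). The call was close to the threshold: it held in 7 of the 14 alternatives, with adjusted p-values from 0.000342 to 0.263, and limma-voom (0.0590) did not make it. Of the 6 fits that each left out 1 library it held in 1, without tamoxifen 4 (0.00167), while the log2 fold change stayed between 0.60 and 0.77.

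Ddit4, also called REDD1, encodes an inhibitor of mTORC1 that responds to hypoxia, DNA damage and glucocorticoids. Ddit4 (chr10:59949669-59951834, minus strand, mm10) was at 7.03, 12.2 and 12.9 CPM in oil and at 34.4, 49.7 and 17.6 CPM in tamoxifen. The groups did not overlap, and the tamoxifen libraries differed from each other by more than the oil libraries did. The log2 fold change was 1.66 (SE 0.38), the largest of the 30, with an edgeR adjusted p of 0.0716 over 6 libraries. The DESeq2 Wald test (0.000115), the fit with no low-count filter (0.0271) and the fit without tamoxifen 4 (0.000267) called it. So did the replicate block (0.0171), which leaves 1 residual degree of freedom. The adjusted p of Ddit4 reached 0.278 when another library was left out.

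Hif1a encodes the oxygen-regulated subunit itself. It was at 200, 207 and 194 CPM in oil and at 212, 203 and 220 CPM in tamoxifen, a log2 fold change of 0.08 (SE 0.08, adjusted p = 0.563) with overlapping groups. Egln1 encodes PHD2, the main hydroxylase that marks HIF1 alpha for degradation, and is itself a hypoxia target. Egln1 (chr8:124908587-124949324, minus strand, mm10) was at 11.8, 6.40 and 9.05 CPM in oil and at 14.4, 16.9 and 14.3 CPM in tamoxifen. Every tamoxifen library was higher, with a log2 fold change of 0.75 (SE 0.22, adjusted p = 0.136, DESeq2 adjusted p = 0.0380). Egln3, the inducible hydroxylase PHD3, had 0 counts in 5 libraries and 1 count in tamoxifen 2, and was not tested.

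The other hypoxia targets of the set, P4ha1, Bnip3, Bnip3l and Ankrd37, were not higher in all tamoxifen libraries. P4ha1, which encodes a subunit of the collagen prolyl hydroxylase (chr10:59323296-59373304, plus strand, mm10), was at 54.6, 48.9 and 53.1 CPM in oil and at 42.6, 34.8 and 44.5 CPM in tamoxifen. All tamoxifen libraries were lower (log2 fold change -0.36, SE 0.12, adjusted p = 0.155). Bnip3 and Bnip3l encode receptors for the removal of mitochondria by autophagy, and Bnip3l also acts when erythroid cells clear their mitochondria. Bnip3l was at 269, 272 and 273 CPM in oil and 279, 274 and 243 CPM in tamoxifen (log2 fold change -0.03, SE 0.09), and Bnip3 was at 20.0 to 24.4 CPM in oil and 21.3 to 24.8 CPM in tamoxifen (log2 fold change 0.04, SE 0.13). Ankrd37, an ankyrin repeat gene induced by HIF1, was at 3.78 to 5.18 CPM in oil and 2.98 to 6.37 CPM in tamoxifen (log2 fold change 0.06, SE 0.30). These 3 genes overlapped between the groups. Of the exons of Ankrd37 and Bnip3, 26.4% and 22.3% lie opposite another gene, and the strand setting is not given in the sources used here, so that reads of both strands cannot be told apart.

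Promoters were searched for the core of the hypoxia response element, ACGTG or GCGTG on either strand, in windows from 250 bases before to 50 bases after each RefSeq start site (GRCm38.p6). The ACGTG form is also part of the E-box CACGTG, which Myc and other factors bind. A window was found for 31 of the 33 genes, the exceptions being Slc2a3 and Bnip3l. The core occurred for 28 of the 31 genes (90.3%), beside 46.7% of 27025 genes in the same table, and ACGTG alone for 22 (71.0%, beside 21.8%). CACGTG occurred for 6 (19.4%, beside 8.09%). The genes of the set were chosen in part as known hypoxia-inducible transcripts. Counted by window, since a gene can have several, the core occurred in 36 of 45 of the set (80.0%), beside 43.8% of all 32851. The windows of the set were also richer in G and C, with a median of 62.3% beside 52.7% over all windows, and the core holds both letters. Of the genes with a window, Eno2, Gpi1 and Tpi1 had no core. Vegfa has an outer start without a core in its window and an inner start with 2. The matches are letters in a window, and binding was not measured. As examples of genes from both directions, the 250 bases before the start are given for Ddit4 (chr10:59951771-59952020, minus strand) and Egln1 (chr8:124949255-124949504, minus strand), whose tamoxifen libraries were all higher, and for Pgk1 (chrX:106186850-106187099, plus strand) and P4ha1 (chr10:59323046-59323295, plus strand), whose tamoxifen libraries were all lower. They are written 5′ to 3′ on the strand of the gene, from RefSeq GRCm38.p6, with the core in capitals, and CACGT or CACGC is the core read from the other strand.
Ddit4: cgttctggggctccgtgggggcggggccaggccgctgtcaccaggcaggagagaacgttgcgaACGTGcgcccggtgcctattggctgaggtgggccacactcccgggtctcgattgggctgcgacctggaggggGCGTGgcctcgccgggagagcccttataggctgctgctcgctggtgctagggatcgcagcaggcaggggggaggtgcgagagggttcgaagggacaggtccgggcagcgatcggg
Egln1: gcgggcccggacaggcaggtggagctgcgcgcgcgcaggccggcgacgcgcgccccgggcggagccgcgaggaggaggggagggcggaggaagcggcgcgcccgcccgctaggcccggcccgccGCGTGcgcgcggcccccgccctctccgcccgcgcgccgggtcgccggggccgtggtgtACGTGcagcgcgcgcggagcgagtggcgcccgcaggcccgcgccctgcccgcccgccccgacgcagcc
Pgk1: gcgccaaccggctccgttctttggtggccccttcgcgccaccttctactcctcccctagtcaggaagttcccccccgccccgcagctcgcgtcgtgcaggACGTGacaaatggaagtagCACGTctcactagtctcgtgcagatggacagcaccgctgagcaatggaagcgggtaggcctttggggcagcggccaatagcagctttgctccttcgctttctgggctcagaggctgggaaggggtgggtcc
P4ha1: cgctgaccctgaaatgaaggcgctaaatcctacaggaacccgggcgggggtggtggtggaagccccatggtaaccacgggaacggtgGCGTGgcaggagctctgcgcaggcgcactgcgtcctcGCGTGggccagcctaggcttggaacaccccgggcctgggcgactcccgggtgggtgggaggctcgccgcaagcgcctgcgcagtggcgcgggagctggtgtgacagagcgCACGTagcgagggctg

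Ddit4 and Egln1 each held 1 ACGTG and 1 GCGTG, Pgk1 held ACGTG on both strands, and P4ha1 held 2 GCGTG and 1 ACGTG. The core was present for 28 of the 31 genes with a window, so its presence before these chosen genes says nothing about direction. A relation of the core to direction was not tested.

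Tamoxifen 4 weighed on the whole set. Without it 7 genes were called higher (23.3%, beside 19.2% of all genes) and 9 lower (30.0%, beside 17.1%) by edgeR. The 7 were Slc2a3, Aldoc, Pkm, Pfkfb3, Egln1, Vegfa and Ddit4. The 9 were the lactate transporters Slc16a1 and Slc16a3, the enzymes Pfkl, Pfkm, Tpi1, Pgk1, Pgam1 and Ldha, and the collagen hydroxylase P4ha1. For Ldha the log2 fold change was -0.26 (adjusted p = 0.0174) and for Pgk1 -0.29 (adjusted p = 0.0250) without this library. Tamoxifen 1 and 2 were then the only libraries of their group. With all 6 libraries the DESeq2 Wald test called 5 higher (16.7%, beside 5.69% of all genes) and 2 lower (6.67%, beside 1.67%). The 5 were Vegfa, Ddit4, Egln1, Pfkfb3 and Pkm, and the 2 were Pfkm and Pgam1, and all 7 were among the genes called by edgeR without tamoxifen 4.

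**Figure D4:**
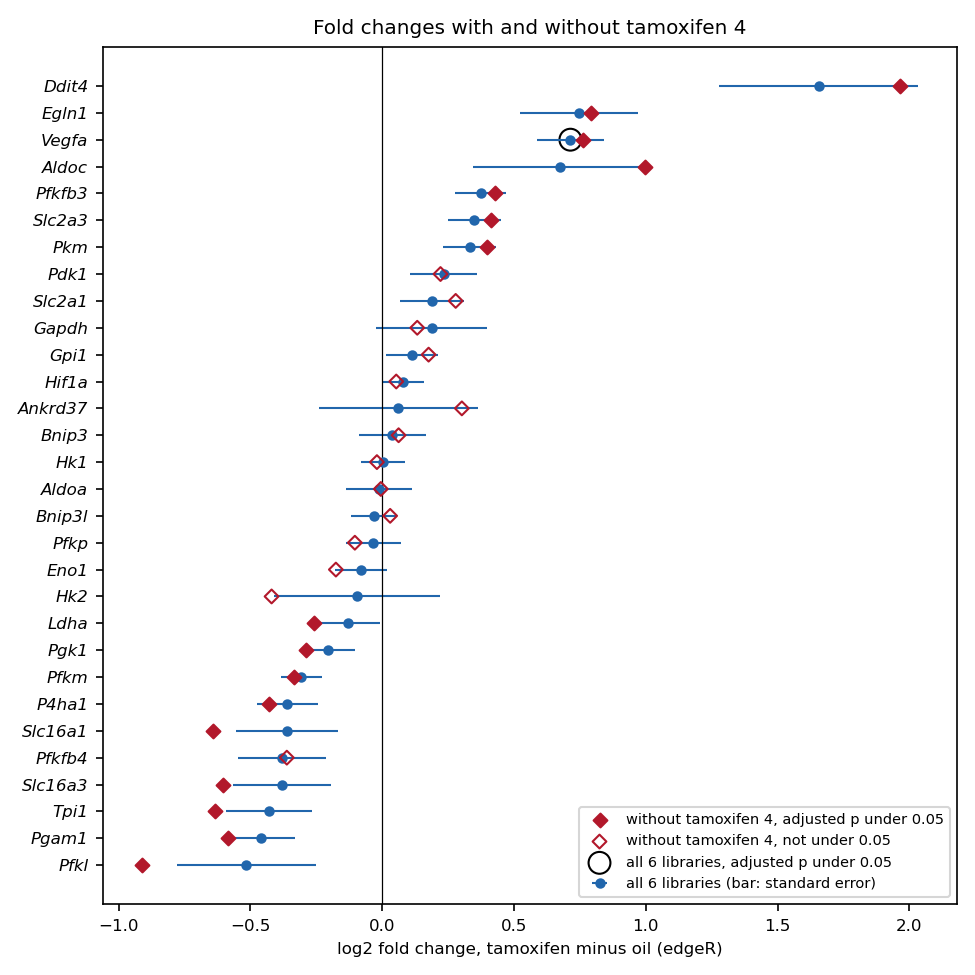
Log2 fold change of tamoxifen against oil from edgeR (horizontal axis) for the 30 tested genes, over all 6 libraries (blue points, bars of 1 standard error) and without tamoxifen 4 (red diamonds, filled where the adjusted p was under 0.05). The 1 circled gene, Vegfa, was called over all 6 libraries at 0.71, and 16 diamonds are filled, with Ddit4 at 1.97 and Pfkl at -0.91 at the ends.

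The levels were also summarised by role in each library, as the median over genes of the log2 difference from the oil mean. The flux regulators were at 0.286, 0.174 and 0.265 in tamoxifen 1, 2 and 4 and between -0.139 and 0.09 in oil. The tested pair of the HIF pathway, Hif1a and Egln1, was at 0.392, 0.479 and 0.411, and between -0.202 and 0.205 in oil. In these 2 roles, each with at most 3 genes, all tamoxifen libraries lay above all oil libraries. The genes within each role did not move together. Egln1 and Pfkfb3 were higher in all tamoxifen libraries, Hif1a and Pdk1 overlapped between the groups, and Pfkfb4 was lower in all tamoxifen libraries. The upper glycolytic genes were at -0.243, -0.087 and -0.017, and the lower glycolytic genes at -0.182, -0.171 and 0.097. The transporters were at -0.188, -0.159 and 0.040. In these 3 roles tamoxifen 4 was within the range of oil, which was -0.061 to 0.111, -0.031 to 0.110 and -0.096 to 0.124. Lactate dehydrogenase, by its 1 tested gene, was at -0.335, -0.190 and 0.102, with tamoxifen 4 above the oil range of -0.035 to 0.045 and the other tamoxifen libraries below it. The other hypoxia targets, which include Vegfa and Ddit4, were at 0.345, 0.030 and -0.081 beside -0.071 to 0.040 in oil, so that as a group they were above oil in tamoxifen 1, within it in tamoxifen 2 and below it in tamoxifen 4.

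Genes of neighbouring pathways were counted from lists of related enzymes and regulators. Of 13 tested further glycolytic enzymes and isozymes, 13 genes of pyruvate entry into mitochondria, 10 genes of the pentose phosphate pathway, 7 further transporters, 14 genes of HIF subunits and their degradation and 15 upstream regulators such as Myc and Txnip, edgeR called none in either direction. At an unadjusted p under 0.05 there were 17 of these 72 genes (23.6%, beside 20.6% of all genes), and the DESeq2 Wald test called 7 in either direction (9.72%, beside 5.69% of all genes higher and 1.67% lower). Of 12 tested genes of glycogen metabolism and gluconeogenesis, 1 was called higher (8.33%, beside 1.75% of all genes) and 0 lower (beside 0.267%). This was Pgm2, which encodes a phosphoglucomutase of glycogen metabolism, at 41.5, 45.8 and 43.6 CPM in oil and 67.9, 61.8 and 59.1 CPM in tamoxifen (log2 fold change 0.53, SE 0.09, adjusted p = 0.0399). Of 24 tested further hypoxia-inducible genes, 2 were called higher (8.33%, beside the same 1.75%) and 0 lower, Ndrg1 and Hmox1. Ndrg1, a stress-responsive gene, was at 2.65, 3.97 and 2.06 CPM in oil and 32.0, 49.1 and 8.51 CPM in tamoxifen (log2 fold change 3.36, SE 0.60, adjusted p = 0.0402). Hmox1, which encodes the haem-degrading enzyme heme oxygenase and which oxidative stress also induces, was at 1.13, 1.02 and 1.39 CPM in oil and 8.23, 9.57 and 2.76 CPM in tamoxifen (log2 fold change 2.53, SE 0.47, adjusted p = 0.0426). In both, all tamoxifen libraries were higher and tamoxifen 4 was the lowest of the 3, as for Ddit4. The median log2 fold change of the 24 was 0.11, and 16 of them were positive. Without tamoxifen 4, when edgeR called 19.2% of all genes higher and 17.1% lower, 7 of these 24 were called higher and 3 lower. In the same fit 4 of the 12 glycogen and gluconeogenesis genes were called higher and 1 lower, 3 of the 13 further glycolytic enzymes higher and 1 lower, and 3 of the 13 genes of pyruvate entry higher and 3 lower. Of the 10 pentose phosphate genes 2 were called higher and 3 lower, of the 7 further transporters 2 and 2, of the 14 genes of HIF subunits and degradation 0 and 2, and of the 15 upstream regulators 5 and 0.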

How the data were processed

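RNA was sequenced from 3 oil and 3 tamoxifen samples. The deposited values were estimated counts by gene symbol, which the authors had not scaled between libraries, with STAR, DESeq2 and mm10 named in the submitters' processing notes. The counting program, strand setting and annotation are not given in the sources used here. All values were multiples of 0.5, and were rounded before testing. Titles number oil 1, 2, 4 and tamoxifen 1, 3, 4, columns oil 1, 3, 4 and tamoxifen 1, 2, 4; column numbers are used, and oil 3 and tamoxifen 2 were placed by group only. The genes and lists were chosen with earlier results of these data known, and no list was tested as a whole.

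The rounded counts were tested with edgeR 4.0.16 under R 4.3.3 (filterByExpr, TMM, quasi-likelihood F test, two-sided, Benjamini-Hochberg over 11614 genes), tested on simulated data. Alternatives used DESeq2 1.42.0, limma 3.58.1, other normalizations and filters, a replicate block, and each library left out. CPM used TMM-scaled totals, and ratios a prior count of 0.5. Replicates differed by more than sampling noise (chi-square per degree of freedom at least 7.32). Exons came from GENCODE M21 (GRCm38, the build of mm10), promoters from RefSeq GRCm38.p6, and shared sequence from BLAST 2.17.0. All 33 genes are named.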

Additional observations from a re-analysis of the deposited data

How the results depend on the processing

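Over all pairs of a tested gene of the set and an alternative, 370 kept direction and side of the threshold, 23 gained and 7 lost a call, and 20 turned direction, and the cause was not tested.

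The DESeq2 Wald test called 742 genes higher and 218 lower, with 5 and 2 of the set, and gave Usp18 a log2 fold change of 0.99 (adjusted p = 0.00202). Limma-voom called 48 and 6, with 0 of the set higher. No low-count filter gave 372 and 61, with 2 of the set higher and Usp18 at 0.99 (0.0395). A mean of at least 50 counts gave 120 and 17. Across the 6 edgeR fits that each left out 1 library, 8 to 2278 genes were higher and 0 to 2024 lower, with 0 to 7 and 0 to 9 of the set; all upper values came without tamoxifen 4, and leaving out any other library called 0 of the set. In these fits Usp18 ran from 0.73 to 1.18 (1.04 without tamoxifen 4, adjusted p = 0.00654), the median of the set from -0.0401 to 0.0616 and that of the flux regulators from 0.158 to 0.382.

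Genes near 0 turned direction. Aldoa was at 0.0026 with upper-quartile normalization. Hk1 was at -0.0003 with DESeq2, -0.0046 with no filter, -0.0183 with the replicate block and -0.0024 with unrounded counts, a setting chosen after seeing the data. With 1 library left out the log2 fold change ran from -0.0199 to 0.049 for Hk1, -0.419 to 0.166 for Hk2, -0.104 to 0.0473 for Pfkp, -0.129 to 0.092 for Aldoa, -0.0339 to 0.114 for Bnip3, -0.239 to 0.302 for Ankrd37 and -0.0696 to 0.0303 for Bnip3l.

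Numbers 1 and 4 occur in both groups, and libraries with the same number deviated from their group means with correlations of -0.127 and 0.062. With so few shared numbers, these correlations cannot decide whether the libraries were paired. The replicate block, with 1 residual degree of freedom, called 215 genes higher and 26 lower, with 1 and 0 of the set; Ddit4 gained its call (1.35, adjusted p = 0.0171), Vegfa lost it (0.58, 0.263) and Ankrd37 was at -0.112. Ratios with Eno2, Ldhb or Egln3 were not computed, since these genes were below the filter.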
